A study of Papio anubis and Macaca mulatta with 6 samples.

Results

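HOX genes encode homeodomain transcription factors that tell cells where they lie along the head to tail axis of the body. They stand in 4 clusters (HOXA, HOXB, HOXC and HOXD), and each member has a position from 1 to 13 that is shared with its paralogues in the other clusters. Genes with low positions are switched on early and far forward in the embryo and genes with high positions later and further back, and fibroblasts and blood vessels keep part of this code in adult organs. Polycomb proteins keep HOX genes silent, Trithorax proteins keep them active, and PBX, MEIS and PKNOX proteins bind DNA beside the HOX proteins.

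The members were all genes whose symbol is HOXA, HOXB, HOXC or HOXD followed by a number, which gave 39 of 34178 genes listed for the olive baboon (Papio anubis) and 37 of 21356 for the rhesus macaque (Macaca mulatta). The rhesus entries have 36 symbols, because HOXA10 is listed under the identifiers ENSMMUG00000013459 and ENSMMUG00000051571, and which of them is HOXA10 is uncertain. HOXA9, HOXB3 and HOXC8 were not analysed here in the rhesus macaque. The cells came from the testes of 2 baboons and 2 rhesus macaques, all immature and untreated, whose testes were taken at necropsy, and each species was analysed alone. Baboon 1 gave the libraries 1A and 1B, rhesus 2 gave 2A and 2B, and the other two animals gave 1 library each. Baboon 2 was run with version 3 of the droplet chemistry from 10x Genomics and the others with version 2. No strain is given, and no age could be tied to an animal. The tissue was digested in 2 steps, and the first wash was meant to remove cells of the interstitium, so shares of cell types were set partly by the protocol.

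Cells were placed in 5 classes by their unique molecular identifiers (UMIs) of marker genes, none of which is a HOX gene. Mural means pericytes, vascular smooth muscle and any peritubular myoid cells, which share ACTA2, MYH11 and TAGLN. The mural class may thus hold cells of the tubule wall beside those of vessels. Baboon 1 and 2 had 8260 and 3172 Sertoli cells, the support cells of the seminiferous tubule, 1484 and 3194 stromal cells, 96 and 59 mural cells, 142 and 132 endothelial cells and 98 and 94 germ cells. Rhesus 1 and 2 had 2672 and 3706 Sertoli, 4075 and 8350 stromal, 227 and 400 mural, 50 and 556 endothelial and 146 and 28 germ cells. Of the markers that define the classes, AMH was found in at least 99.6% of Sertoli cells, DCN in at least 95.7% of stromal cells and EGFL7 in at least 93.0% of endothelial cells of each animal. These shares follow in part from the class rule and are no check of it. The mural class of rhesus 1 went against its name in part, with the pericyte marker RGS5 in 5.73% of its cells, NOTCH3 in 0% and the contractile genes ACTA2 and MYH11 in 88.5% and 89.4%. Its stromal marker list summed to 7313 CPM, above its own mural list at 5055 CPM, the Leydig list stood at 2322 CPM, and 13 of its 227 cells met the stricter class rule, so it is not a clean class of mural cells. In rhesus 2 the mural list stood at 10495 CPM and the stromal list at 4254 CPM in the mural class. NOTCH3 was also rare in the mural class of rhesus 2, at 1.25%, where RGS5 stood at 52.5%. In the germ class of rhesus 1, DDX4 was found in 18.5% of the cells and SOHLH1 in 79.5%, and its median depth was 4207.5 UMIs a cell against 17845 and 14792 in the libraries of rhesus 2. Libraries shared 1 to 124 cell barcodes, at most 1.65% of the smaller one.

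Levels are given as counts per 1e+06 UMIs of the class (CPM), first in animal 1 and then in animal 2 of the species. In this 3′ method a transcript gives its tag at the end whatever its length, so CPM was compared between genes without dividing by length. Gene models that overlap or that lack part of the 3′ end lose tags, and the baboon model of HOXA10, of only 282 bases, was at 0 in all 5 classes. Overlapping members in Panubis1.0 are HOXA3, HOXA4, HOXA5 and HOXA6, HOXC6 and HOXC8, and HOXC4 and HOXC5, and their split of the UMIs is uncertain. In the baboon 4 members had no UMI in the 5 classes (HOXA10, HOXB1, HOXD12 and HOXD13), 7 had 1 to 10 and 28 had more, 6638 in all, of which the 12 most abundant members held 87.9%. In the rhesus macaque 9 entries had none (HOXA3, HOXA10 under ENSMMUG00000051571, HOXB1, HOXB5, HOXC12, HOXC13, HOXD11, HOXD12 and HOXD13), 14 had 1 to 10 and 14 had more, 1698 in all, of which the 12 most abundant held 95.3%. In the RefSeq annotation of Mmul_10, HOXA3 overlaps HOXA4, HOXA5 and HOXA6 and HOXB7 overlaps HOXB8. The rhesus UMIs were counted under Ensembl identifiers, whose models may overlap differently.

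In the baboon genome (Panubis1.0) the HOXB, HOXC and HOXD members lie at chr17:44050868-44247454 (HOXB), chr9:48691618-48808716 (HOXC) and chr10:59805339-59903412 (HOXD). In the rhesus genome (Mmul_10) the RefSeq models of these clusters span chr16:48072081-48266657, chr11:53540627-53658151 and chr12:63206989-63305740. The paralogues at position 9 are shown because closely related members stood high in different baboon cell types. HOXD9 did so in stromal and endothelial cells, and HOXB9 and HOXC9 in germ cells, HOXC9 with lower values in the stroma of baboon 2. Their homeobox, the coding DNA of the homeodomain, was read from the plus strand of Mmul_10 and is in exon 2 of 2 of each RefSeq model, at chr16:48173019-48173198 (HOXB9), chr11:53604252-53604431 (HOXC9) and chr12:63238228-63238407 (HOXD9). Capitals mark the bases at which the 3 genes are not all alike.
HOXB9: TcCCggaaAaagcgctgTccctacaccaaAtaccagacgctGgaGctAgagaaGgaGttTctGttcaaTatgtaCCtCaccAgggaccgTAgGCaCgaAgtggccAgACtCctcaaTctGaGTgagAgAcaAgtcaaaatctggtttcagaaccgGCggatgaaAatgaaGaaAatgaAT
HOXC9: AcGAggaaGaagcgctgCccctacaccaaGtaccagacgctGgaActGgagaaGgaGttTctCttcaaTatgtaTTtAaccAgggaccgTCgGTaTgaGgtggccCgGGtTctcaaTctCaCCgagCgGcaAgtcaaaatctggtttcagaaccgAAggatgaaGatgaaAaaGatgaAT
HOXD9: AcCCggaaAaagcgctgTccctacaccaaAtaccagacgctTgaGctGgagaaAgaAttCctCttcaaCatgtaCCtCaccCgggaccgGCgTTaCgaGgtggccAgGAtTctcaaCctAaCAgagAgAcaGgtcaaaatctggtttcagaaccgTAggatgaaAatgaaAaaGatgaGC

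The 3 homeoboxes were alike at 138 of 180 bases and differed at 42. HOXB9 and HOXC9 differed at 30 bases and 4 of 60 encoded residues, HOXB9 and HOXD9 at 28 bases and 5 residues, and HOXC9 and HOXD9 at 30 bases and 2 residues. Of these differences, 20, 20 and 23 lay at the last base of a codon.

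The 250 bases before the start of each RefSeq model are shown because these 3 paralogues differed in the cells that held them. They were read from the plus strand of Mmul_10 at chr16:48169217-48169466 (HOXB9), chr11:53600742-53600991 (HOXC9) and chr12:63234202-63234451 (HOXD9). Capitals mark matches to TATAAA, matches to CCAAT or matches to GGGCGG, on either strand.
HOXB9: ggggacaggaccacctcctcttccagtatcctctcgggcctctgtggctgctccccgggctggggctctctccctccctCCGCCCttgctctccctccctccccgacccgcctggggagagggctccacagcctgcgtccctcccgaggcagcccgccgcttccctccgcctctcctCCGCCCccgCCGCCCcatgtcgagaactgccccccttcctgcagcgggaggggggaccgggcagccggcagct
HOXC9: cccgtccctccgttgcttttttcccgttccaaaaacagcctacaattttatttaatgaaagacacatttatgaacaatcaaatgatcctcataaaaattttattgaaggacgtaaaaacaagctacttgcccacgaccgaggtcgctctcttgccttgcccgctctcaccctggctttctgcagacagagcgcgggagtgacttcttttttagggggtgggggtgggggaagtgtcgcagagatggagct
HOXD9: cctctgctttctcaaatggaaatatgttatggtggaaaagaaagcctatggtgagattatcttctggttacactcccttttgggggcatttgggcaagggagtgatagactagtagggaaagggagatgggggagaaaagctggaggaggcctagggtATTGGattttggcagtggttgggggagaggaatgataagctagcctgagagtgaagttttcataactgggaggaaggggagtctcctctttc

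The window before HOXB9 was 74.0% G and C with 17 CpG pairs and 3 matches to GGGCGG. The windows before HOXC9 and HOXD9 were both 47.6% G and C, with 11 and 0 CpG pairs, and HOXD9 had 1 match to CCAAT. Among the windows of 20782 protein-coding genes, 9.85% held TATAAA, 31.0% CCAAT and 43.7% GGGCGG, the median G and C content was 57.2% and the median number of CpG pairs was 12. The model of HOXD9 starts 2597 bases before its start codon, against 387 for HOXB9 and 999 for HOXC9, so its window may not be the promoter used in these cells.

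In the baboon, HOX transcripts were abundant in every class but Sertoli cells. All members together reached 390.4 and 551 CPM in stromal cells, 297 and 372 in mural cells, 309 and 369 in endothelial cells and 712 and 532 in germ cells, against 2.74 and 13.04 in Sertoli cells. Germ cells drew on the clusters in other shares than stromal, mural and endothelial cells. HOXD gave 78.8 and 80.9% of the HOX UMIs of stromal cells, 63.5 and 81.7% in mural cells and 89.6 and 87.9% in endothelial cells, but 7.44 and 16.2% in germ cells. HOXB gave 37.2 and 37.7% in germ cells and 0.119 and 0.285% in stromal cells, and no HOXB UMI was found in the 96 and 59 mural cells. Neither share overlapped between the germ and stromal classes.

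**Figure D1:**
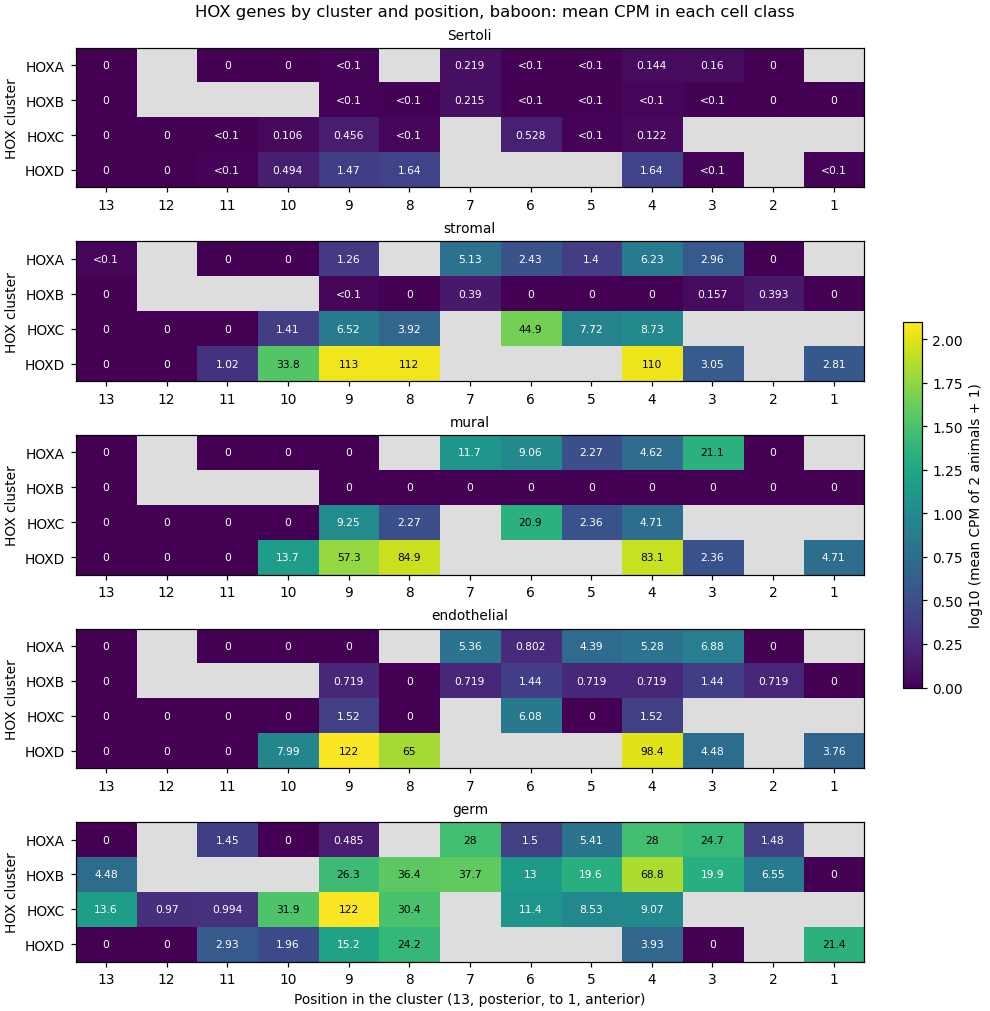
Mean CPM of each HOX gene in the 5 baboon cell classes (mean of 2 animals), with clusters as rows and positions 13 to 1 as columns. Colour is log10 of CPM + 1 and grey squares have no listed gene or are not shown. HOXD4, HOXD8 and HOXD9 stood out in stromal, mural and endothelial cells, and the HOXB row is filled in germ cells alone apart from means of 1.44 or less.

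In stromal, endothelial and germ cells of the baboon, shares by position lay closer together than shares by cluster. Members at positions 4 to 8 gave 65.3 and 63.97% of the HOX UMIs in stromal cells, 58.03 and 54.5% in endothelial cells and 52.9 and 51.7% in germ cells. Members at positions 9 to 13 gave 32.2 and 34.3%, 37.3 and 40.1% and 34.05 and 37.9%. Positions 1 to 3 gave 13.02 and 10.4% in germ cells and 2.503 and 1.74% in stromal cells. Mural cells varied more between the animals. Their shares (mean ± SD, n = 2) were 67.5 ± 1.15% at positions 4 to 8, 23.2 ± 10.3% at positions 9 to 13 and 9.34 ± 11.5% at positions 1 to 3. At position 13, the most posterior, 28 and 8 UMIs were counted in germ cells and 0 and 1 in stromal cells, of which there were more.

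The members most abundant in the stromal, mural and endothelial classes were HOXD4, HOXD8 and HOXD9, central and posterior HOXD genes. HOXD9 stood at 109 and 117 CPM in stromal cells, 112 and 131 in endothelial cells, 33.00 and 81.6 in mural cells, 9.16 and 21.3 in germ cells and 0.505 and 2.43 in Sertoli cells. HOXD8 stood at 90.7 and 134 CPM in stromal cells, 60.9 and 68.98 in endothelial cells, 56.6 and 113 in mural cells, 17.3 and 31.03 in germ cells and 0.548 and 2.74 in Sertoli cells. HOXD4 stood at 85.6 and 135 CPM in stromal cells, 96.2 and 101 in endothelial cells, 80.2 and 86.1 in mural cells, 2.04 and 5.82 in germ cells and 0.505 and 2.77 in Sertoli cells. For all 3 genes the stromal and endothelial values lay above the germ and Sertoli values in both animals. HOXD9 was 6.36 ± 0.65 log2 higher in stromal than in Sertoli cells (edgeR quasi-likelihood test, adjusted p = 1.50e-04, n = 2 animals), and HOXD8 and HOXD4 were 6.20 and 6.17 log2 higher. HOXD9 did not pass the test between endothelial and stromal cells (log2 fold change 0.03 ± 0.53 (SE), adjusted p = 0.995), and neither did HOXD4 (log2 fold change -0.24 ± 0.53 (SE), adjusted p = 0.817).

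HOXC6 and HOXD10 were highest in the stromal cells of each baboon. HOXC6 stood at 38.6 and 51.2 CPM in stromal cells, 6.41 and 5.75 in endothelial cells, 23.6 and 18.1 in mural cells, 11.2 and 11.6 in germ cells and 0.211 and 0.845 in Sertoli cells. HOXD10 stood at 16.3 and 51.4 CPM in stromal cells, 1.604 and 14.4 in endothelial cells, 4.71 and 22.7 in mural cells, 1.02 and 2.91 in germ cells and 0.0421 and 0.946 in Sertoli cells. The stromal values of HOXC6 lay above those of every other class in both animals. HOXC6 was the only member that passed the test between endothelial and stromal cells (log2 fold change -2.96 ± 0.58 (SE), adjusted p = 0.00605). In that comparison 17.6% of all genes changed, 9.89% higher and 7.73% lower. HOXD10 was lower in endothelial cells by value but did not pass (log2 fold change -2.15 ± 1.06 (SE), adjusted p = 0.208), and its stromal level differed between the animals. With classes taken from clusters, HOXC6 no longer passed, and with the animal as a block 3 members passed. Mural and stromal cells gave no call among 20 tested members with edgeR, where 7.50% of all genes passed, 5.42% higher and 2.08% lower. HOXA3 alone had an unadjusted p under 0.05 there, and DESeq2 called 0. In that comparison HOXD9, HOXD8 and HOXD4 had log2 fold changes of -1.08, -0.50 and -0.50, each within 2 SE of 0, and the mural sums rest on 63 and 82 HOX UMIs.

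HOXC4 was found in both stromal and germ cells, at 10.7 and 6.76 CPM in stromal cells, 1.604 and 1.44 in endothelial cells, 9.43 and 0 in mural cells, 14.3 and 3.88 in germ cells and 0.0421 and 0.203 in Sertoli cells. Its stromal and germ values overlapped, and the test between them gave log2 fold change -0.15 ± 0.80 (SE), adjusted p = 0.903. HOXC5, whose model overlaps that of HOXC4, had 19 and 42 UMIs in stromal cells, 12 and 5 in germ cells and 0 in endothelial cells. HOXD3 had 6 and 21 UMIs in stromal cells and none in germ cells, and HOXA5 had 4 and 6 in stromal and 3 and 8 in germ cells. Other members with low counts (HOXA2, HOXA11, HOXA13, HOXC11, HOXC12 and HOXD11) had 0 to 10 UMIs in any class of an animal.

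Germ cells held members of all 4 clusters. HOXC9 was their most abundant member and HOXB4, best known in blood stem cells, the next. HOXC9 stood at 138 and 105 CPM in germ cells, 0 and 13.04 in stromal cells, 1.604 and 1.44 in endothelial cells, 9.43 and 9.06 in mural cells and 0.168 and 0.743 in Sertoli cells. HOXB4 stood at 81.5 and 56.2 CPM in germ cells, 0 and 0 in stromal cells, 0 and 1.44 in endothelial cells, 0 and 0 in mural cells and 0 and 0.169 in Sertoli cells. Germ cells of both animals were far above every other class for both genes. Compared with Sertoli cells, HOXC9 was 7.86 ± 1.07 log2 higher (edgeR quasi-likelihood test, adjusted p = 3.23e-04) and HOXB4 9.18 ± 0.89 (edgeR quasi-likelihood test, adjusted p = 1.65e-04). Both genes passed the filter on low counts only with the germ cells, so these tests are no support of their own.

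The other HOXB genes followed HOXB4. HOXB7, a central member, had 36 and 40 UMIs in germ cells against 1 and 2 in stromal cells, and HOXB8, its neighbour, had 43 and 30 against 0 and 0. HOXB3, HOXB5, HOXB6 and HOXB9 had 20 and 20, 27 and 12, 15 and 11, and 24 and 29 UMIs in germ cells and together 3 in stromal cells. The log2 fold changes of HOXB3 to HOXB9 between germ and Sertoli cells ran from 7.19 to 9.21. All 7 passed the filter on low counts through the germ cells alone, so that they also passed the test there is no support of its own. HOXB13, HOXB2 and HOXB1 were too low to be tested, at 5 and 4, 10 and 3, and 0 and 0 UMIs in germ cells.

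Among the remaining germ cell members, HOXA4 stood at 36.7 and 19.4 CPM in germ cells, 7.91 and 4.56 in stromal cells, 4.81 and 5.75 in endothelial cells, 4.71 and 4.53 in mural cells and 0.0842 and 0.203 in Sertoli cells. HOXA7 stood at 36.7 and 19.4 CPM in germ cells, 7.91 and 2.36 in stromal cells, 6.41 and 4.31 in endothelial cells, 18.9 and 4.53 in mural cells and 0.168 and 0.2704 in Sertoli cells. HOXA3 stood at 38.7 and 10.7 CPM in germ cells, 3.72 and 2.199 in stromal cells, 8.02 and 5.75 in endothelial cells, 37.7 and 4.53 in mural cells and 0.0842 and 0.237 in Sertoli cells. These HOXA genes were higher in germ than in stromal cells of both animals, but for HOXA3 the mural value of baboon 1, from 8 UMIs, lay between the germ values of the animals. HOXC8 stood at 36.7 and 24.2 CPM in germ cells, 1.396 and 6.44 in stromal cells, 0 and 0 in endothelial cells, 0 and 4.53 in mural cells and 0.0421 and 0.135 in Sertoli cells. HOXC10 and HOXC13, posterior HOXC genes, had 38 and 26 and 23 and 4 UMIs in germ cells, and HOXC13 had none in any other class. HOXD1, the anterior end of its cluster, went with the germ cells and not with the rest of HOXD, at 22.4 and 20.4 CPM in germ cells, 2.79 and 2.83 in stromal cells, 3.21 and 4.31 in endothelial cells, 9.43 and 0 in mural cells and 0.0421 and 0.0676 in Sertoli cells.

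**Figure D2:**
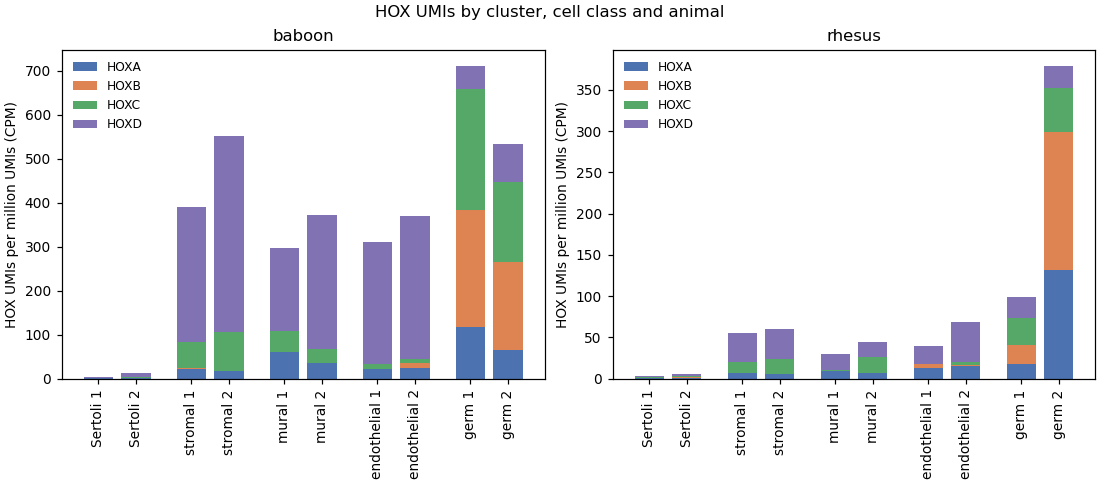
HOX CPM, stacked by cluster, for each cell class and animal (bars start at 0, the 2 panels have different scales). Sertoli bars lie near 0, stromal and endothelial bars are mostly HOXD, and HOXB shows mainly in germ cells of both species.

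The comparison of stromal with Sertoli cells asks how the interstitium differs from the tubule, and that of germ with Sertoli cells how the 2 cell types of the tubule differ. Of 39 baboon members 20 passed the filter on low counts, which asked for at least 9.93 CPM in 2 class sums. No Sertoli sum of any of them reached that level, and 15 of the 20 passed only with the help of the germ cells. The other 5 were HOXC6, HOXD4, HOXD8, HOXD9 and HOXD10. The members tested were thus chosen in part by the levels compared, and their counts of calls are a description that is not read against the share of all genes. In stromal cells 13 of these were higher than in Sertoli cells and 0 lower, where 23.7% of all genes changed, 13.2% higher and 10.4% lower. The 13 were HOXA3, HOXA4, HOXA7, HOXC4, HOXC6, HOXC8, HOXC9, HOXC10, HOXD1, HOXD4, HOXD8, HOXD9 and HOXD10, and the 7 HOXB genes tested did not pass. In germ cells 18 were higher than in Sertoli cells and 0 lower, where 47.4% of all genes changed, 28.7% higher and 18.7% lower. HOXD4 (log2 fold change 1.15 ± 0.86 (SE), adjusted p = 0.306) and HOXD10 (log2 fold change 1.82 ± 1.61 (SE), adjusted p = 0.384) did not pass. Both comparisons share the Sertoli sums. Without the cells called by their profile alone, 8 of 17 members passed in stromal cells, and HOXA3, HOXC9, HOXC10 and HOXD1 no longer did. That setting kept 816 stromal cells of baboon 1 and 74 of baboon 2. The replicates are separate animals, 2 per species.

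Germ and stromal cells were then compared directly in the same fit, a comparison chosen after the values had been seen. Higher in germ cells were 14 of 20 members, where 26.7% of all genes were higher, and lower in germ cells were 5, where 18.8% were lower and 45.5% changed. The 14 were among the 15 that passed the filter only with the germ cells, and the 5 were those that did not need them, so the filter had a part in these counts and the shares of all genes are no measure for them. The 5 that fell were HOXC6 (-2.21 log2), HOXD4 (-5.03), HOXD8 (-2.45), HOXD9 (-3.13) and HOXD10 (-4.32). HOXD4 had the smallest adjusted p among them (6.07e-04). The 14 that rose were HOXB3 to HOXB9, HOXA3, HOXA4, HOXA7, HOXC8, HOXC9, HOXC10 and HOXD1. HOXC9 was 3.81 ± 0.90 log2 higher. Against the limit of 3 UMIs over all 8514659 stromal UMIs, HOXB4 was at least 195-fold higher in germ cells, HOXB8 at least 103-fold, HOXB5 at least 54.97-fold and HOXB6 at least 36.6-fold. HOXB7 was 107-fold higher (95% counting interval 35.3 to 531). Within HOXD, HOXD1 was thus higher and HOXD4, HOXD8, HOXD9 and HOXD10 lower in germ cells.

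HOX transcripts were low in Sertoli cells, and so were the stromal markers. The 12 stromal markers summed to 73.5 and 211 CPM in Sertoli cells of the baboons, which was 0.742% and 1.98% of their level in stromal cells. All HOX members stood at 0.701% and 2.37% of their stromal level and HOXD at 0.534% and 2.06%. Single genes lay at 0.464% (HOXD9) to 0.603% (HOXD8) in baboon 1 and at 2.05% (HOXD8) to 2.08% (HOXD9) in baboon 2, below the marker share in the first and above it in the second. The defining stromal markers were above 0 in the Sertoli class, 12 of 12 in both animals. In rhesus macaques the stromal markers stood at 4.52% and 7.94% of their stromal level, all HOX members at 6.78% and 9.997% and HOXD at 5.14% and 6.58%. HOXD9 stood at 13.2% and 4.91% and HOXD8 at 3.69% and 5.65%, so the shares of single genes lay on both sides of the marker share. With cells marked as doublets left out, the mean HOX level in Sertoli cells was 3.22 CPM in the baboon, against 7.89 ± 7.29 (SD, n = 2) with them, and 2.90 in the rhesus macaque, against 4.87 ± 1.60. In baboon 2, 13 of 3172 Sertoli cells held 3 or more members and the fullest held 15. The part of stromal and germ cell RNA in these values was not tested.

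In baboon germ cells single HOXD genes stood at different shares of their stromal level. In germ cells the stromal markers stood at 0.833% and 1.26% of their stromal level, while HOXD4 stood at 2.38% and 4.30%, HOXD9 at 8.42% and 18.2% and HOXD8 at 19.1% and 23.2%. The endothelial markers stood at 2.80% and 2.16% of their endothelial level. HOXD8 had 17 and 32 UMIs and HOXD4 2 and 6 in germ cells, where stromal cells had nearly equal counts of both. The part of stromal and endothelial RNA in these values was not tested.

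The stroma of the 2 baboons differed in a set of HOX genes. HOXC9 had 0 UMIs in stromal cells of baboon 1 and 83 in those of baboon 2, which is 13.04 CPM against a limit of 1.40 CPM that 3 counts would give. The stroma of baboon 2 held more UMIs, 6365553 against 2149106. Of its 3194 stromal cells 74 lay above the UMI cutoff, against 816 of 1484 in baboon 1, and the others were called by their profile. HOXD10 stood at 16.3 and 51.4 CPM, HOXC8 at 1.396 and 6.44, HOXA6 at 0.931 and 3.93, HOXC10 at 0 and 2.83 and HOXA9 at 0 and 2.51, where the limit in baboon 1 is 1.40 CPM for a count of 0. Other members were higher in baboon 1, with HOXA7 at 7.91 and 2.36 CPM, HOXC4 at 10.7 and 6.76 and HOXA4 at 7.91 and 4.56. HOXC9 was at 0 in library 1A and in library 1B. HOXD9 was nearly level at 109 and 117 CPM, and the stromal markers summed to 9899 and 10675 CPM. With 1 animal on each side there is no test, and animal, age and chemistry version cannot be told apart.

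**Figure D3:**
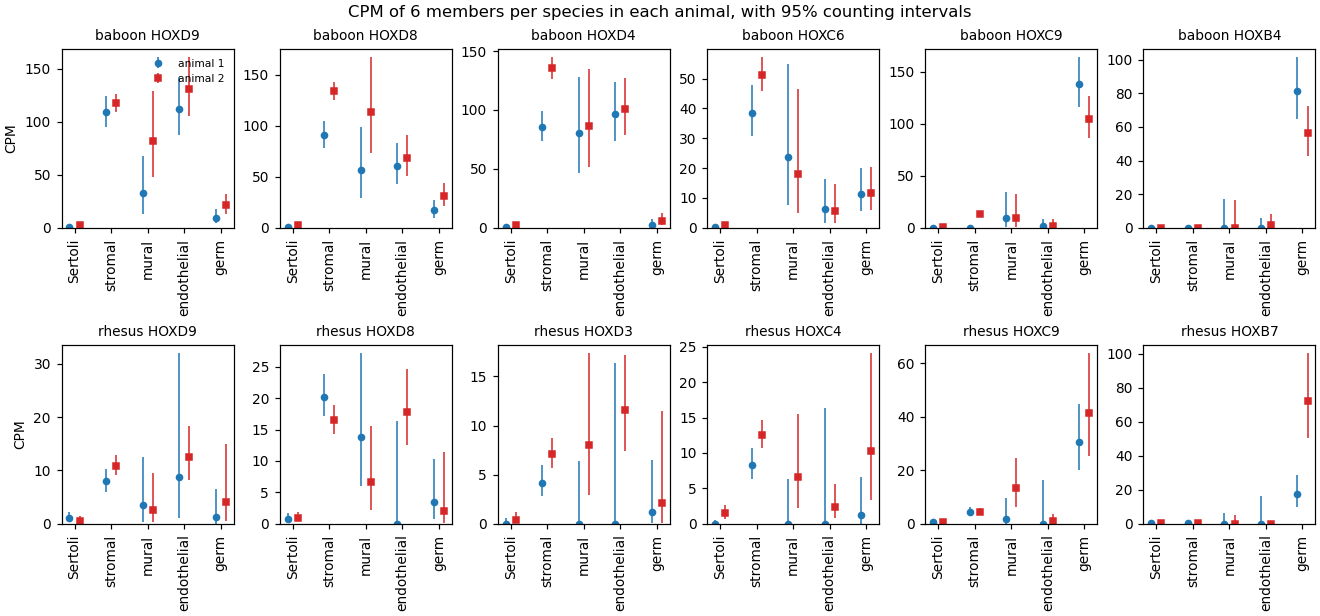
CPM of 6 members in each species by cell class (circles animal 1, squares animal 2, bars 95% exact counting intervals, axes from 0). HOXC6 in the baboon is highest in stroma, and HOXC9 in both species, baboon HOXB4 and rhesus HOXB7 are highest in germ cells. The stromal intervals of rhesus HOXD3 and HOXC4 overlap those of some other classes but lie above those of Sertoli cells.

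In the rhesus macaque HOXD also led in stroma. HOXB stood higher in germ cells than in the other classes, which held 0 to 6 HOXB UMIs per animal. Levels are not compared between species, because the gene models differ. All members together reached 55.2 and 60.03 CPM in stromal cells, 29.3 and 43.9 in mural, 39.9 and 69.03 in endothelial, 98.4 and 379 in germ and 3.74 and 6.002 in Sertoli cells. HOXD gave 63.3 and 60.8% of the HOX UMIs in stromal cells and 21 of 84 and 13 of 184 HOX UMIs in germ cells. HOXB gave 23.8 and 44.02% in germ cells and 1.01 and 0.786% in stromal cells. The 2 germ classes differed, with 84 HOX UMIs in 146 cells of rhesus 1 and 184 in 28 cells of rhesus 2. The germ marker list, which was used to define both classes, stood at 1503 and 1283 CPM and is no check of them. A stricter class rule gave 59 and 25 germ cells, and the part of class purity in the difference was not tested.

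**Figure D4:**
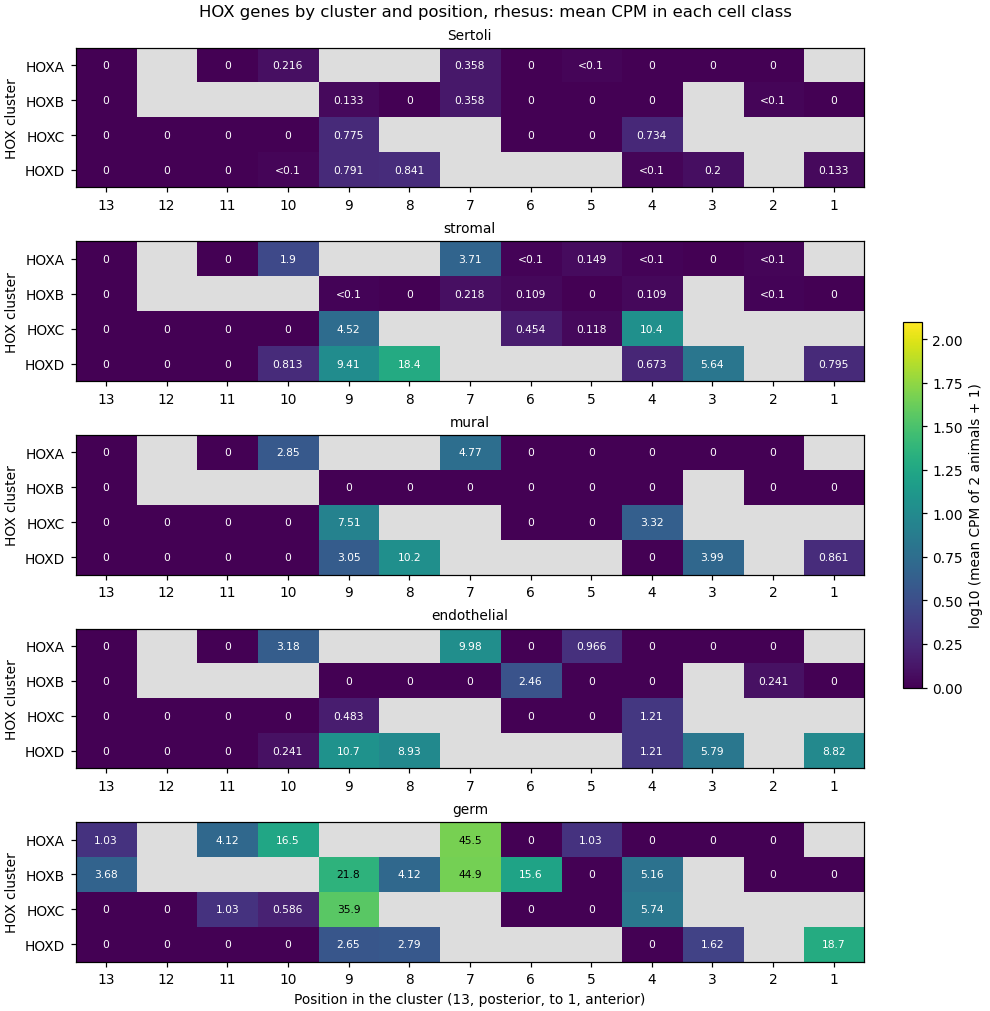
Mean CPM of each HOX gene in the 5 rhesus cell classes (mean of 2 animals), drawn as for the baboon with the same colour scale. Of the entries with the symbol HOXA10 the higher is shown. HOXD8, HOXD9, HOXC4 and HOXD3 lead in stroma and HOXB7, HOXA7 and HOXC9 in germ cells.

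HOXD8 was the most abundant member of the rhesus stroma in both animals, at 20.3 and 16.5 CPM in stromal cells, 0 and 17.9 in endothelial cells, 13.8 and 6.65 in mural cells, 3.51 and 2.06 in germ cells and 0.749 and 0.934 in Sertoli cells. HOXD9 stood at 7.97 and 10.9 CPM in stromal cells, 8.86 and 12.6 in endothelial cells, 3.44 and 2.66 in mural cells, 1.17 and 4.12 in germ cells and 1.05 and 0.533 in Sertoli cells. HOXD3, an anterior member, stood at 4.19 and 7.08 CPM in stromal cells, 0 and 11.6 in endothelial cells, 0 and 7.97 in mural cells, 1.17 and 2.06 in germ cells and 0 and 0.4001 in Sertoli cells. HOXD4, by contrast, had 4 and 10 UMIs in stromal cells, which is 0.559 and 0.787 CPM. The RefSeq annotation of Mmul_10 gave no model named HOXD4, and its HOXD3 model spans 21577 bases, against 9025 in Panubis1.0. The rhesus UMIs were counted under Ensembl identifiers, so these RefSeq models do not show how they were split. The split of UMIs between HOXD3 and HOXD4 in the rhesus macaque is uncertain, and the part of the gene models was not tested. For HOXD8 the stromal values of both animals lay above the germ and Sertoli values. HOXD8 was 4.54 ± 0.80 log2 higher in stromal than in Sertoli cells (edgeR quasi-likelihood test, adjusted p = 0.004396), HOXD9 3.61 and HOXD3 4.74.

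HOXC4 stood at 8.25 and 12.5 CPM in stromal cells, 0 and 2.41 in endothelial cells, 0 and 6.65 in mural cells, 1.17 and 10.3 in germ cells and 0 and 1.47 in Sertoli cells. HOXC4 was 3.96 ± 1.19 log2 higher in stromal than in Sertoli cells (edgeR quasi-likelihood test, adjusted p = 0.0482). It passed the filter on low counts only with the stromal cells, so this test is no support of its own. The HOXA10 entry ENSMMUG00000013459 stood at 1.68 and 2.12 CPM in stromal cells, 4.43 and 1.93 in endothelial cells, 1.72 and 3.99 in mural cells, 0 and 32.99 in germ cells and 0.2995 and 0.133 in Sertoli cells, and the other HOXA10 entry had no UMI. HOXD4 stood at 0.559 and 0.787 CPM in stromal cells, 0 and 2.41 in endothelial cells, 0 and 0 in mural cells, 0 and 0 in germ cells and 0 and 0.133 in Sertoli cells.

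In rhesus germ cells HOXB7 stood at 17.6 and 72.2 CPM in germ cells, 0.2796 and 0.157 in stromal cells, 0 and 0 in endothelial cells, 0 and 0 in mural cells and 0.449 and 0.267 in Sertoli cells. HOXC9 stood at 30.5 and 41.2 CPM in germ cells, 4.47 and 4.56 in stromal cells, 0 and 0.966 in endothelial cells, 1.72 and 13.3 in mural cells and 0.749 and 0.8002 in Sertoli cells. HOXA7 stood at 10.5 and 80.4 CPM in germ cells, 4.75 and 2.68 in stromal cells, 8.86 and 11.1 in endothelial cells, 6.89 and 2.66 in mural cells and 0.449 and 0.267 in Sertoli cells. HOXB7 and HOXC9 were higher in germ cells than in any other class of the same animal, while the HOXA7 germ value of rhesus 1, from 9 UMIs, lay below the endothelial value of rhesus 2. HOXD1 stood at 18.7 and 18.6 CPM in germ cells, 1.12 and 0.472 in stromal cells, 13.3 and 4.34 in endothelial cells, 1.72 and 0 in mural cells and 0 and 0.267 in Sertoli cells. HOXB9 stood at 2.34 and 41.2 CPM in germ cells, 0 and 0.0787 in stromal cells, 0 and 0 in endothelial cells, 0 and 0 in mural cells and 0 and 0.267 in Sertoli cells. HOXB6 stood at 2.34 and 28.9 CPM in germ cells, 0.1398 and 0.0787 in stromal cells, 4.43 and 0.483 in endothelial cells, 0 and 0 in mural cells and 0 and 0 in Sertoli cells. HOXB9 and HOXB6 rested mostly on rhesus 2, with 20 and 14 of their 22 and 16 germ cell UMIs, and were too low to be tested.

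Of 37 rhesus entries 8 passed the filter on low counts (at least 6.84 CPM in 2 class sums), of which HOXB7, HOXC9 and HOXD1 did so only with the germ cells, and no Sertoli sum reached that level. In stromal cells 6 of 8 were higher than in Sertoli cells and 0 lower, where 15.1% of all genes changed, 7.59% higher and 7.52% lower, and HOXD1 and HOXB7 did not pass. Without library 2A 3 of 5 members passed. In germ cells HOXA7, HOXB7, HOXC9 and HOXD1 were higher than in Sertoli cells, 4 of 8, where 33.5% of all genes changed, 18.6% higher and 14.9% lower. HOXB7 was 6.63 ± 1.02 log2 higher (edgeR quasi-likelihood test, adjusted p = 0.00241) and HOXC9 5.32 ± 0.77. For the members that needed the germ cells to be tested, passing here is no support of its own. The counts against Sertoli cells are a description that is not read against the share of all genes. Between rhesus mural and stromal cells, where the mural class of animal 1 held more stromal than mural markers, no member passed, against 0.112% of all genes, 0.0931% higher and 0.0186% lower (edgeR; 0 at an unadjusted p under 0.05), and none passed between endothelial and stromal cells, where 10.8% did, 6.78% higher and 4.04% lower (2 at an unadjusted p under 0.05). DESeq2 called 0 and 1. The member nearest to the threshold was HOXD1, higher in endothelial cells (log2 fold change 3.05 ± 1.04 (SE), adjusted p = 0.0933).

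In the comparison of germ with stromal cells, added after the values had been seen, 4 of 8 members were higher, where 20.5% of all genes were, and 1 was lower, where 15.8% were and 36.3% changed. HOXB7, HOXC9 and HOXD1 had passed the filter only with the germ cells. The filter thus had a part in these counts, and the shares of all genes are no measure for them. HOXA7 (3.24 log2), HOXB7 (7.23), HOXC9 (2.69) and HOXD1 (4.27) were higher and HOXD8 (log2 fold change -2.90 ± 0.91 (SE), adjusted p = 0.0301) was lower. HOXD9 did not pass (log2 fold change -2.25 ± 0.83 (SE), adjusted p = 0.0556). HOXB7 counts gave a ratio of 186 (95% counting interval 68.1 to 707).

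Single cells held few HOX UMIs, so shares of cells follow depth. In the baboon 87.8 and 80.9% of germ cells and 41.0 and 61.6% of stromal cells had a HOX UMI, against 0.726 and 7.66% of Sertoli cells, which serve as the background. After each cell was thinned to 1000 UMIs the shares were 50.5 and 38.9% in germ cells, 31.0 and 42.3% in stromal cells, 29.0 and 30.4% in endothelial cells, 19.0 and 32.1% in mural cells and 0.266 and 1.67% in Sertoli cells. At equal depth the germ and stromal ranges overlapped, and Sertoli cells stayed apart. Cells with fewer UMIs were left out, which kept 1115 and 2918 stromal, 7898 and 3121 Sertoli and 97 and 90 germ cells. For HOXB alone the thinned shares were 26.8 and 22.2% in germ cells and 0.0897 and 0.171% in stromal cells. In the rhesus macaque the thinned shares were 6.38 and 40.7% in germ cells, 5.71 and 6.14% in stromal cells and 0.394 and 0.467% in Sertoli cells.

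**Figure D5:**
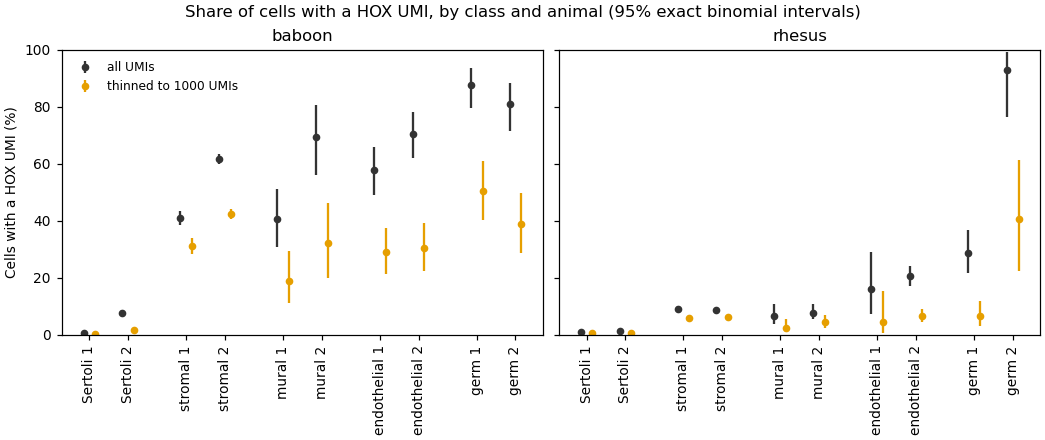
Share of cells with at least 1 HOX UMI in each class and animal, with all UMIs (dark) and after thinning to 1000 UMIs per cell (orange), with 95% exact binomial intervals that cover counting error only. After thinning, baboon germ (38.9 to 50.5%) and stromal (31.0 to 42.3%) shares overlap and Sertoli shares stay under 2%.

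In the baboon several members were found together in 1 germ cell. The median baboon germ cell held UMIs of 4 (baboon 1) or 3 (baboon 2) different HOX genes, and the fullest held 14 and 15. In the stroma the median was 0 and 1. Germ cells were deeper, with median UMI counts of 9364.5, 12479.5 and 9778 per library against 1259.5, 1319 and 1766.5 in stromal cells, and after thinning 6.19 and 4.44% of germ cells and 0.538 and 1.44% of stromal cells held 3 or more members. In the rhesus macaque the median germ cell held 0 (rhesus 1) or 3 (rhesus 2) members and the fullest 5 and 9, and after thinning 0 of 141 and 0 of 27 germ cells held 3 or more, which allows shares of up to 2.13% and 11.1%. The free RNA of near-empty barcodes held 41.2, 138 and 108 CPM of HOX in libraries 1A, 1B and 2. Of HOXB it held 3.61 to 5.54 CPM, from 8, 1 and 1 UMIs. HOXB stood at 265 and 201 CPM in baboon germ cells, and the part of free RNA in these values was not tested.

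Among the 9 cofactors of the TALE group, which bind DNA with HOX proteins, 7 could be tested in the baboon. MEIS1 (5.98 log2), MEIS2 (5.50) and PKNOX1 (1.22) were higher and MEIS3 (-1.59) lower in stromal than in Sertoli cells, with a median of 0.29 over the list and -0.04 over all genes. The same 3 were higher in germ than in Sertoli cells (MEIS2 5.70, MEIS1 5.39, PKNOX1 1.17), and MEIS3 (-1.97) and PBX4 (-2.06) were lower. Of all genes 23.7% changed between stromal and Sertoli cells and 47.4% between germ and Sertoli cells. None of the 7 passed between germ and stromal cells, where 45.5% of all genes did. PKNOX1 (-1.58) was lower in endothelial than in stromal cells, where 7.73% of all genes were lower. In the rhesus macaque 8 were tested, and MEIS1 (3.56), PKNOX2 (3.84) and MEIS2 (3.06) were higher in stromal and MEIS2 (4.09) in germ than in Sertoli cells. MEIS1 was lower in germ (-3.72) and endothelial (-3.51) than in stromal cells, and MEIS3 (-3.17) was lower in endothelial cells. Of all rhesus genes 15.1% changed in stromal and 33.5% in germ against Sertoli cells. Against stromal cells 36.3% changed in germ and 10.8% in endothelial cells.

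Of 15 Polycomb genes 14 were tested in the baboon and 12 in the rhesus macaque. In baboon germ cells 6 were higher than in stromal cells (RNF2, EZH2, JARID2, SUZ12, CBX2 and CBX8) and 2 lower (RING1 and EZH1), with a median of 0.69, where 26.7% of all genes were higher and 18.8% lower. EZH2, the main Polycomb histone methylase of dividing cells, was 3.39 ± 0.64 log2 higher and EZH1, its counterpart in resting cells, fell by 2.20. In the rhesus macaque EZH2 (2.50) and CBX2 (1.95) were higher and EZH1 (-2.46), RING1 (-1.21) and PCGF2 (-1.51) lower, where 20.5% of all genes were higher and 15.8% lower. Against Sertoli cells, 5 Polycomb genes were higher and 2 lower in baboon germ cells and 1 higher and 2 lower in rhesus germ cells. Of all genes 28.7% were higher and 18.7% lower in the baboon and 18.6% and 14.9% in the rhesus macaque. With 14 and 12 Polycomb genes tested, these counts lie near or below the share of all genes. RNF2 was lower in baboon stromal than Sertoli cells, where 10.4% of all genes were lower, and no Polycomb gene was higher in stromal cells. Between endothelial and stromal cells CBX2 was higher in both species, where 9.89% of all baboon and 6.78% of all rhesus genes were higher. No Polycomb gene passed between mural and stromal cells.

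Of 8 Trithorax genes and their partners 7 were tested in the baboon and 6 in the rhesus macaque. WDR5, a core subunit of these complexes, was 2.11 log2 higher in baboon germ than stromal cells and 2.30 higher in rhesus ones, and it was 2.33 and 2.58 higher than in Sertoli cells. KMT2A (-1.24) and KDM6A (-1.03) were lower in baboon germ than in stromal cells, and KDM6A was lower in germ than in Sertoli cells in both species. Against stromal cells 45.5% of all genes changed in baboon and 36.3% in rhesus germ cells, and against Sertoli cells 47.4% and 33.5%. KMT2D and KDM6B were also lower in baboon germ than in Sertoli cells. KDM6B was higher in rhesus endothelial than in stromal cells, where 6.78% of all genes were higher. None passed between stromal and Sertoli or mural and stromal cells. Of the 5 neighbouring and upstream homeobox genes, only CDX1 was tested, in the baboon, and it was higher than in Sertoli cells in stromal (4.60 log2) and germ cells (6.74). By value it was also higher in mural (3.79) and germ (2.14) than in stromal cells, without passing. CDX1 was a low gene, at 0.94 log2 CPM over the class sums. The filter on low counts asked for at least 9.93 CPM in 2 class sums, so CDX1 passed it through the sums where it stood high. Its tests against Sertoli cells are thus no support of their own.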

How the data were processed

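The authors deposited raw UMI counts for every barcode of 6 libraries of droplet 3′ RNA-seq, made with Cell Ranger 3.1.0 per the labels and counted on Panubis1.0 (baboon) or Mmul_10 (rhesus). No cell calling had been applied to them. Library totals ran from 16875294 to 49803025 UMIs, so the precision of low genes is set by counting. Intervals are exact 95% ones and cover counting error only.

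Cells were barcodes above a UMI cutoff (the 99th percentile of the top 5000 barcodes, divided by 10) or, from 500 UMIs, barcodes whose profile differed from free RNA (barcodes 45001 to 90000 by rank) at an adjusted p under 0.01, with at least 200 genes. Classes needed 3 markers of a list and a margin of 3 in log likelihood over the next class. Doublets were scored with Scrublet in scanpy 1.11.5. Its own threshold marked 0 to 6.03% of the cells of a library and had not worked in 3 of them, so the highest scores were marked at a rate of 0.8% per 1000 cells (5.05 to 9.69%). Marked cells were kept, and leaving them out was an alternative. Counts were summed per animal and class and tested with edgeR 4.0.16 in R 4.3.3 (TMM, filterByExpr, quasi-likelihood test, Benjamini-Hochberg over all genes, threshold 0.05), with DESeq2 1.42.0 as an alternative. All p-values of the report are from edgeR unless DESeq2 is named.

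The animal pairs its classes, since they come from 1 animal, and the deviations of paired sums correlated at 0.202 to 0.682 in the baboon and 0.128 to 0.59 in the rhesus macaque. Each cell was thinned to 1000 UMIs for shares of cells. On simulated data, 45.5 to 78.5% of 200 genes changed by 2 on the log2 scale were recovered among 12037 baboon genes and 49.5 to 78.0% among 10744 rhesus genes. The changed genes left out those of lowest mean level, and the sums were simulated as independent, with equal base levels in all classes. These shares may thus not hold for HOX members near the filter on low counts. Values are printed in every animal and class for the 12 members with the most UMIs, other members are given by counts or ranges or when they passed a test, and 4 lists of HOX cofactors and regulators by counts. The members and lists were chosen with earlier results of these data known, and germ against stromal cells was compared after the values were seen. The alternatives were DESeq2, no filter, the animal as a block, libraries as samples, leaving out libraries, other calls of cells and classes, free RNA subtracted and thinning. The values of 1 member and 1 regulator are not reported here. Sequences are from RefSeq on Mmul_10.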

Additional observations from a re-analysis of the deposited data

Results flagged for a closer look

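Cell classes that enter no comparison also held HOX UMIs above the limit that a count of 0 allows. In the baboon the level was 121 CPM in 14 Leydig cells (95% exact counting interval 66.3 to 203), 65.9 in 52 macrophages (35.1 to 113), 30.2 in 65 lymphoid cells (11.1 to 65.8), 53.3 in 8 glial cells (24.4 to 101) and 9.73 in 200 duct epithelial cells (6.66 to 13.7). The 5975 cells placed in no class stood at 33.1 CPM, and HOXD9, HOXD4 and HOXD8 led them with 77, 74 and 70 of 325 UMIs. In the rhesus macaque the level was 24.6 CPM in 254 Leydig cells (16.5 to 35.3), 18.5 in 219 macrophages (8.46 to 35.1), 27.1 in 64 lymphoid cells (7.39 to 69.4) and 38.3 in 5661 cells of no class. HOXB6 gave 5 of the 9 HOX UMIs of rhesus macrophages, against 1 and 1 UMIs in all stromal cells of rhesus 1 and rhesus 2. The values of the named classes rest on 4 to 32 UMIs. All 14 baboon Leydig cells came from library 2 and all 64 rhesus lymphoid cells from library 1. Of the 9 UMIs of baboon glial cells, 4 came from 2 cells of library 1B. Free RNA of the libraries held 41.2 to 138 CPM of HOX in the baboon and 19.2 to 24.1 in the rhesus macaque, and its part in these values was not tested.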

How the results depend on the processing

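No call of a member changed direction under any alternative. Without the filter on low counts, more members were tested (35 in the baboon, 28 in the rhesus macaque) and 20 passed in baboon stromal against Sertoli cells, 1 in mural and 4 in endothelial against stromal cells, and in the rhesus macaque 12 in germ against Sertoli, 1 in endothelial against stromal and 13 in germ against stromal cells. With cells from the UMI cutoff alone, 8 passed in baboon stromal cells. With the animal as a block, the paired fit called 3 members in baboon endothelial cells (1 without it) and 1 in rhesus endothelial cells (0 without it), and it changed no other count by over 1.5 times. Rhesus endothelial cells gave 1 call with DESeq2 and 2 with libraries as samples, and baboon endothelial cells 0 with classes from clusters. Without library 2A the rhesus count for stromal against Sertoli cells was 3 and without 2B it was 4, where fewer members were tested. Leaving out baboon library 1A or 1B gave 12 to 13, 16 to 16, 0 to 0, 1 to 1 and 14 to 18 calls for stromal and germ against Sertoli cells and mural, endothelial and germ against stromal cells. Leaving out 2A or 2B gave 3 to 4, 0 to 0, 0 to 0 and 4 to 6 in the last 4 of these in the rhesus macaque. Leaving out baboon library 2 or rhesus library 1 leaves 1 animal, so no test was run. The counts under these alternatives describe the members only and are not read against the share of all genes that passed. The rhesus Sertoli level was 2.90 CPM without doublets and 6.87 with classes from clusters (4.87 as reported). Thinned to 1000 UMIs, the mean share of cells with a HOX UMI was 36.6% in stromal, 25.5% in mural, 29.7% in endothelial and 44.7% in germ cells of the baboon, and 0.430% in Sertoli, 5.92% in stromal, 3.33% in mural and 5.46% in endothelial cells of the rhesus macaque. The causes of these differences were not tested beyond the number of genes tested, cells kept or UMIs thinned. At these depths a count of 0 does not show absence, and of 37 rhesus entries 9 had no UMI and 14 had 1 to 10.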
